A study of Mus musculus with 9 samples.

Results

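The 39 genes described here encode the enzymes and carriers that split glucose to pyruvate and lactate and that build and break down glycogen. They were found by their symbols, a rule that uses no measured value, among the 55487 genes listed in each table. The list of symbols itself was chosen with earlier results of these data known. RNA was sequenced from 9 samples of gastrocnemius, the large calf muscle, of male C57BL/6 mice, 3 in each of 3 groups. Dis was muscle of the hindlimb that had been held in a thermoplastic bandage for 7 days, Con was muscle of the free leg on the other side of the bandaged mice, and NC was muscle of naive mice that were never bandaged. The series text gives an age of 8 weeks, whereas the methods have mice bought at 8 weeks and housed for 4 more. The labels do not tell which Con and Dis samples are legs of 1 mouse, and the comparisons were made without pairing. The study's text has the profiled muscles taken from several mice, while the labels tie no sample to an animal, and P-values measure the spread between these samples only. The sources disagree on which leg was bandaged, the methods name the tibialis anterior where the labels name the gastrocnemius, and the series text describes Con as bandaged where the sample labels describe it as free. The sample labels were followed.

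Skeletal muscle burns glucose and stored glycogen when contraction outpaces oxygen supply. Glycogen phosphorylase, switched on by phosphorylase kinase, frees glucose phosphate, which passes through an investment phase to triose phosphates and then through a payoff phase to pyruvate. Lactate dehydrogenase interconverts pyruvate and lactate, its A form prevailing in fast glycolytic fibres and its B form in heart and oxidative fibres, and fast fibres hold more of most of these enzymes than slow ones.

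Values are TPM, transcript levels corrected for gene length and rescaled so that every sample has an equal sum, so levels of different genes can be set side by side. Read totals cannot be had from TPM, so the sequencing depth is unknown and counting errors were not computed. In bulk muscle, fewer cells of a type and less RNA per cell cannot be told apart. All 39 symbols were found, Aldoa on 2 rows, and all 39 passed the filter of at least 0.3 TPM in at least 3 samples. The second Aldoa row lay between 0.871 and 2.16 TPM and did not pass the test, and the abundant row is used below. Of the 39 genes, 8 averaged 1000 TPM or more over the 9 samples, 16 lay between 100 and 1000 TPM, 9 between 10 and 100 TPM, 5 between 1 and 10 TPM, and Aldoc below 1 TPM. Together they held 4.55, 4.33 and 4.87% of all TPM in Dis, 4.56, 4.46 and 4.25% in Con samples and 5.02, 4.72 and 5.44% in NC samples. Dis and Con overlapped in this share, and so did Dis and NC. Without Aldoa, the other 38 held 2.31, 2.18 and 2.76% in Dis, 2.68, 2.54 and 2.46% in Con samples and 2.93, 2.88 and 3.14% in NC samples. Dis then still overlapped Con but lay below all NC samples. Both sums use the Gapdh row without the copies described below.

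Some samples stood apart in genes outside the pathway. Dis sample 2 had 194 TPM summed over 5 macrophage markers, against 19.4 and 27.9 TPM in the other Dis samples, 39.1 to 53.6 in Con and 20.4 to 26.1 in NC. It also had 22.8 TPM over 5 neutrophil markers against 0 to 6.35 TPM in the other samples. Mitochondrial genes held 19.3, 13.8 and 19.3% of all TPM in Dis, 23.4, 19.6 and 21.5% in Con samples and 22.6, 23.2 and 20.1% in NC samples, with all Dis samples below all others. Con sample 1 had the highest summed tendon and adipocyte markers (174 and 73.2 TPM). The 6 skeletal muscle markers summed to 116828 to 134916 TPM in Dis, 116245 to 132786 in Con and 111977 to 129017 in NC, and none of the 6 passed the test. The 7 slow fibre markers summed to 989 to 3013 TPM in Dis, 2819.8 to 8446 in Con and 3494 to 7452 in NC, and 3 of 7 were lower in Dis than in Con and 2 of 7 lower in Dis than in NC. Myh2, the myosin of fast oxidative fibres, was at 505 to 734 TPM in Dis, 2130.1 to 2609.9 in Con and 904 to 2182 in NC, lower in Dis in both comparisons. Of the Schwann cell markers, 2 of 5 were higher in Dis than in Con, with sums of 149 to 371 TPM in Dis, 60.7 to 153 in Con and 99.2 to 168 in NC. The red cell markers summed to 235 to 437 TPM in Dis, 157 to 309.5 in Con and 244 to 347 in NC, endothelial markers to 128 to 153 TPM in Dis, 119 to 124 in Con and 114 to 152 in NC, fibroblast markers to 217 to 725 TPM in Dis, 189 to 496 in Con and 273 to 285 in NC, and 0 of these 15 markers passed the test of Dis with Con. Against NC, 1 of the 15 passed, the endothelial marker Kdr, which was lower in Dis (log2 fold change -0.89, adjusted p = 0.0177). None of the markers was at 0 in all 9 samples. The part of these cell types in the results below was not tested. Dis samples also had higher median-ratio size factors (1.05 to 1.23) than Con (0.94 to 0.98) and NC (0.93 to 0.96), so that the median tested gene lay 0.20 above Con and 0.21 above NC on the log2 scale, which median-ratio scaling moved to 0.01 in both.

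Immobilization was accompanied by lower transcript levels of both lactate dehydrogenases and of the payoff enzyme Pgk1 than in Con and in NC. Of the 7 payoff genes, Pgk1 alone passed against Con, and 3 passed against NC, Pgk1, Eno3 and Pgam2. A phosphorylase kinase subunit and a glycogen-targeting phosphatase subunit were higher than in Con, but did not pass the test against NC. Relative to Con, Ldhb, Pgk1 and Ldha fell and Phka1 and Ppp1r3a rose in Dis, at a limma adjusted p below 0.05 over the 16140 genes tested. The 3 genes that fell are 7.69% of the 39, where 3.08% of all tested genes fell, and the 2 that rose are 5.13%, where 14.1% of all tested genes rose. Relative to NC, 6 genes fell in Dis, Ldhb, Pgk1 and Ldha together with Eno3, Tpi1 and Pgam2. They are 15.4% of the 39, where 2.99% of all tested genes fell. None of the 39 rose relative to NC, where 13.6% of all tested genes rose. At an unadjusted p below 0.05 stood 14 of the 39 for Dis with Con and 13 for Dis with NC. Of all 16140 tested genes, 5433 and 5505 did. Both comparisons use the same Dis samples. Every Dis sample lay above every Con sample in 9 of the 39 genes and below in 7, where 4881 and 1037 of all 16140 did. For Dis with NC the counts were 4 above and 9 below, where 5051 and 1083 of all had this order. An order without overlap, given for single genes below, was therefore common among all tested genes, above all upward. The median log2 fold change of the 39 genes was 0.02 against Con and 0.07 against NC, below the 0.20 and 0.21 of all tested genes. With median-ratio scaling the split changed to 0 higher and 5 lower against Con and to 0 higher and 8 lower against NC. Over all tested genes this scaling likewise gave fewer higher and more lower genes in both comparisons, as listed in the closing section. With TPM rescaled without mitochondrial genes it was 0 higher and 4 lower against Con and 0 higher and 6 lower against NC. Without Dis sample 2 it was 4 higher and 3 lower against Con and 1 higher and 7 lower against NC.

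**Figure D1:**
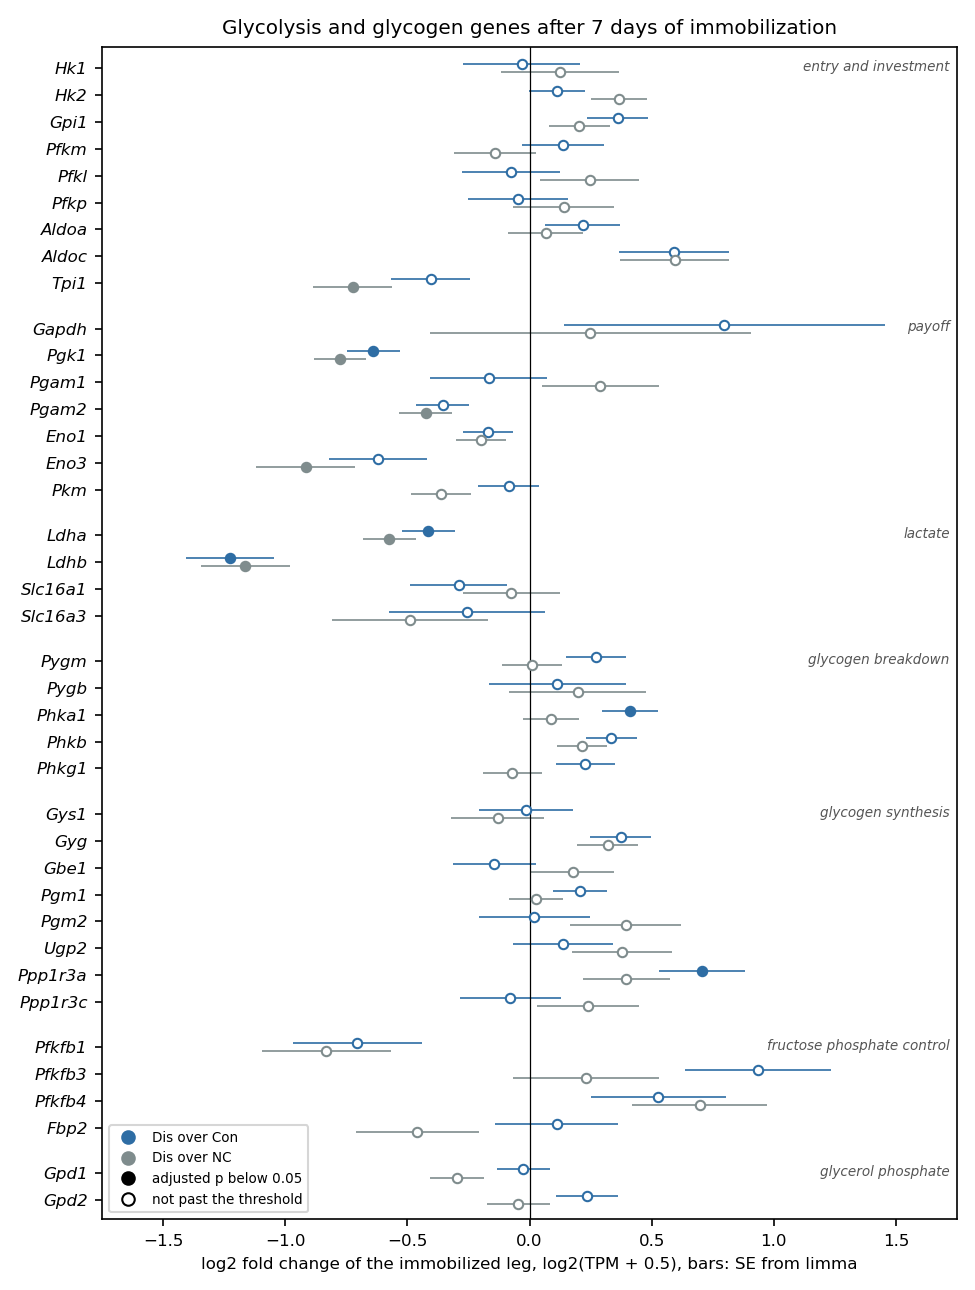
Log2 fold change of each of the 39 genes, Dis over Con in blue and Dis over NC in grey, on the log2(TPM + 0.5) scale, with the standard error of limma as bars and genes grouped by step. Filled points passed an adjusted p of 0.05. The filled points to the left are Ldhb, Ldha, Pgk1, Pgam2, Eno3 and Tpi1, and those to the right are Phka1 and Ppp1r3a.

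The 5 genes that differed between Dis and Con are shown with their promoter windows, so that the letters upstream of genes that fell and genes that rose can be set side by side. Each window of 300 bases runs from 250 bases before to 50 bases from the start of transcription, in RefSeq on GRCm38.p6, and 38 of the 39 genes had a window. Capitals mark matches on either strand to any of 4 patterns, namely ACGTG (the core bound by hypoxia-inducible factors), TNAAGGTCA (estrogen-related receptors), CTA and TAG parted by any 4 bases (a loose form of the MEF2 site, in which those 4 are A or T) and CAGCTG (an E-box of myogenic factors). The windows lie at chr6:142507908-142508207 on the minus strand for Ldhb, chrX:106186850-106187149 on the plus strand for Pgk1, chr7:46845554-46845853 on the plus strand for Ldha, chrX:102644197-102644496 on the minus strand for Phka1 and chr6:14755225-14755524 on the minus strand for Ppp1r3a. The transcription start used for the Ldha window lies 4329 bases from the start of the gene in the tables, and for the other 4 genes the starts coincide.
Ldhb: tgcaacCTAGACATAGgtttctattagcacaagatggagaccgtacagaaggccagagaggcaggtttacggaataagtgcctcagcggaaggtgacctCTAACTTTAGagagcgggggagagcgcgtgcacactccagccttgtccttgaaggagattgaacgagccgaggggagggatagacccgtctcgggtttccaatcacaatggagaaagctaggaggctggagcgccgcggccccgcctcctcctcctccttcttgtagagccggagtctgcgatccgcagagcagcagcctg
Pgk1: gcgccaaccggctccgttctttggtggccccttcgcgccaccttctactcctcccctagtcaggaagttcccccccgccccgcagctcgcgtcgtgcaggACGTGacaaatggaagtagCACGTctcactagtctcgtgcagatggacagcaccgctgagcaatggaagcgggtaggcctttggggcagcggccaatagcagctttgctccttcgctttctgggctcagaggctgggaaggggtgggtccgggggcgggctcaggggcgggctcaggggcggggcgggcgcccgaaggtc
Ldha: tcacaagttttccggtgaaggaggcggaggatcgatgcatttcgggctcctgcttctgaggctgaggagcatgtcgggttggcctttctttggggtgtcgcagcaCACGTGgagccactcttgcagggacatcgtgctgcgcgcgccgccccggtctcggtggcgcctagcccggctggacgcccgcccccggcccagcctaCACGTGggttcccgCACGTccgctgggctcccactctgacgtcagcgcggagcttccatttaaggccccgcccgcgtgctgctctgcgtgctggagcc
Phka1: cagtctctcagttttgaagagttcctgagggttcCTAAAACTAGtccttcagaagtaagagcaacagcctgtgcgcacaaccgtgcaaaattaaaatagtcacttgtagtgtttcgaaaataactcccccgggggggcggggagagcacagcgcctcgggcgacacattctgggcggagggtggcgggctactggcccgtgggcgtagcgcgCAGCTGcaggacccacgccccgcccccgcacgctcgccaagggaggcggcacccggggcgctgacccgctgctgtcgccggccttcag
Ppp1r3a: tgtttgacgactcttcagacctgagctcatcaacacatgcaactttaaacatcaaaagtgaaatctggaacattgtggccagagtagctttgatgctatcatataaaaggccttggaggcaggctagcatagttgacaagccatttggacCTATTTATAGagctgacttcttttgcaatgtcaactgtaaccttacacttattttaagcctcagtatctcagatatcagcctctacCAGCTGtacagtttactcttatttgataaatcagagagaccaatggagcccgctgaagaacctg

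ACGTG was present in the windows of Pgk1 and Ldha, both of which fell. It was absent from those of Ldhb, which also fell, and of Phka1 and Ppp1r3a, which rose. The loose MEF2 pattern was present in Ldhb, Phka1 and Ppp1r3a, of which the first fell and the others rose, and in no other window of the 38. Of the 38 windows, 18 held ACGTG (47.4%, against 19.6% of 32851 promoter windows), 12 held CAGCTG (31.6%, against 16.3%), 3 held the loose MEF2 pattern (7.89%, against 3.69%) and 1, that of Tpi1, held TNAAGGTCA (2.63%, against 1.28%). With A or T at all 4 bases between CTA and TAG, a form searched after the values were seen, the match was in Ppp1r3a alone of the 38 windows (2.63%, against 0.557% of all windows). Where the letters CACGTG stand, the ACGTG matches of both strands overlap. A match describes the letters of a window only.

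Ldhb, which encodes the B subunit of lactate dehydrogenase and lies at chr6:142490249-142507957 (GRCm38, minus strand), had the largest decrease of the 39 genes. Its level was 147, 159 and 206 TPM in Dis, 409.6, 379 and 399 TPM in Con and 368, 494 and 299 TPM in NC. All Dis samples lay below all 6 others, and NC varied more than Con. The mean of 171 ± 31.1 TPM (SD, n = 3) in Dis was 43.1% of the Con mean and 44.1% of the NC mean. The difference passed the test against Con (log2 fold change -1.23, SE 0.18, adjusted p = 0.00553) and against NC (log2 fold change -1.16, SE 0.18, adjusted p = 0.00581), and under each of 21 other settings in both.

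Ldha, which encodes the A subunit that prevails in fast muscle, lies at chr7:46841475-46855627 on the plus strand. Its level was 1569, 1615 and 1679 TPM in Dis, 2233, 2168 and 2079 TPM in Con and 2361, 2194 and 2711 TPM in NC. The highest Dis sample was below the lowest of the other 6. Ldha fell less than Ldhb, against Con (log2 fold change -0.41, SE 0.11, adjusted p = 0.0315) and against NC (log2 fold change -0.57, SE 0.11, adjusted p = 0.0105). The Con difference was past the threshold in 12 of 21 other settings, and was lost, among others, without Dis sample 1, without any of the Con samples and without NC sample 1, at log2 fold changes between -0.65 and -0.39 over all settings. Against NC it was past the threshold in all 21.

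As a share of both subunits, Ldhb made up 8.56, 8.96 and 10.9% in Dis, 15.5, 14.9 and 16.1% in Con samples and 13.5, 18.4 and 9.93% in NC samples. Dis lay below Con without overlap, by 6.01 percentage points in the means, while NC sample 3 lay within the Dis range. A share within a sample does not depend on scaling between samples. The exact two-sided permutation test of 3 against 3 samples cannot go below p = 0.1, which was its value for Dis and Con (0.333 after adjustment over 10 isoform shares). For Dis and NC the difference was -4.45 points, with an exact permutation p of 0.2.

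The lactate carriers did not pass the test. Slc16a3, the exporter of fast fibres, was at 84.7, 64.0 and 193 TPM in Dis, 114, 123 and 127 TPM in Con and 140.1, 134 and 155 TPM in NC, with Dis sample 3 the highest and Dis sample 2 the lowest of all 9. Without Dis sample 3 its log2 fold change was -0.72 against Con (adjusted p = 0.0162) and -0.95 against NC (adjusted p = 0.00844). Slc16a1, the carrier of oxidative fibres, lay between 9.50 and 16.6 TPM in the 9 samples, with log2 fold changes of -0.29 (adjusted p = 0.334) against Con and -0.07 (adjusted p = 0.82) against NC. The 4 lactate genes summed to 0.181, 0.185 and 0.209% of all TPM in Dis, 0.277, 0.268 and 0.262% in Con samples and 0.288, 0.284 and 0.318% in NC samples, with all Dis samples below all others.

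**Figure D2:**
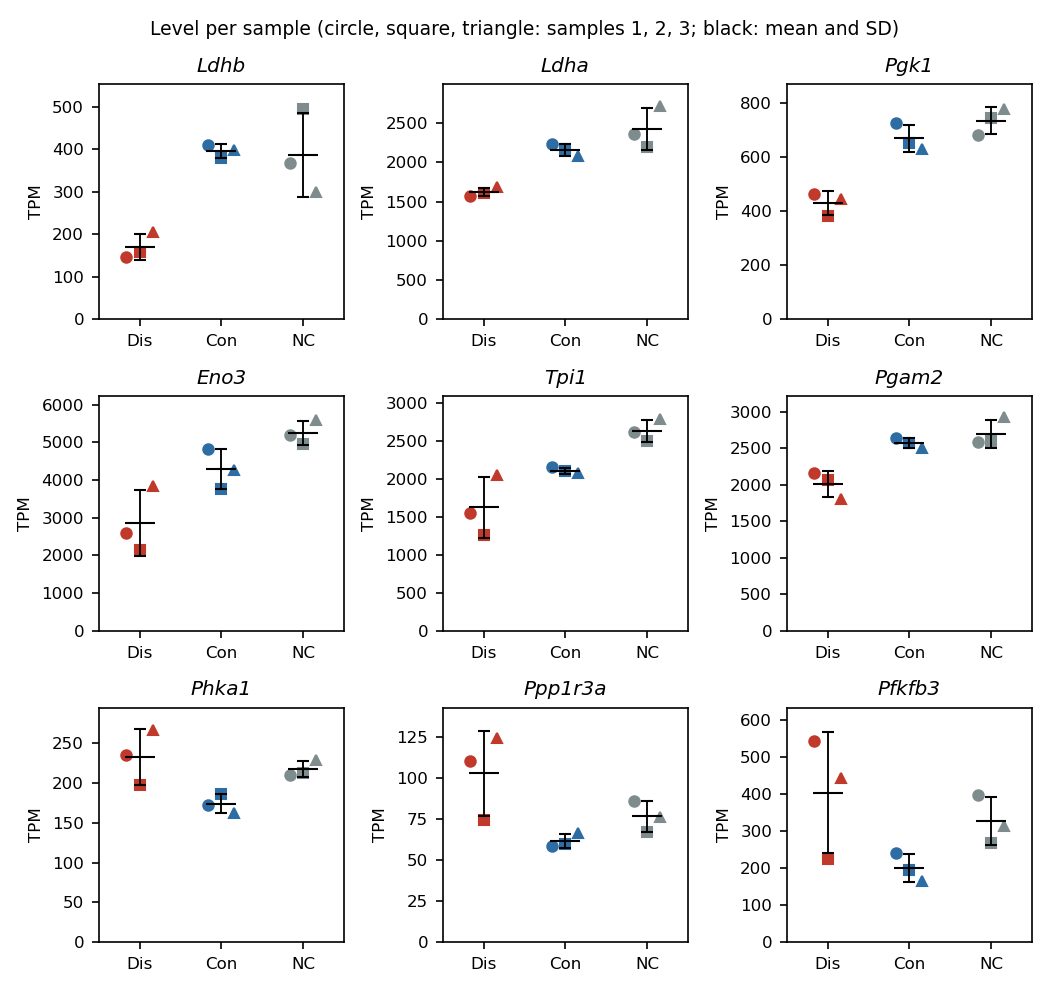
TPM per sample of 9 genes in Dis (red), Con (blue) and NC (grey), with the mean and SD of 3 samples in black and every axis starting at 0. In Dis, Ldhb lies at 147 to 206 TPM, Ldha at 1569 to 1679 TPM and Pgk1 at 382 to 464 TPM, each below all Con and NC samples, while Pfkfb3 in Dis spreads from 225 to 543 TPM.

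In the payoff phase, Pgk1, the kinase that makes the pathway's earliest ATP, fell in both comparisons. It lies at chrX:106187100-106203699 on the plus strand, and its window above holds 2 matches to ACGTG. Its level was 464, 382 and 445 TPM in Dis, 726, 652 and 629 TPM in Con and 682, 744 and 778 TPM in NC. No Dis sample reached any of the others, and Dis averaged 430.1 ± 43.0 TPM (SD, n = 3), 64.3% of the Con mean. The difference was past the threshold against Con (log2 fold change -0.64, SE 0.11, adjusted p = 0.00771), against NC (log2 fold change -0.78, SE 0.11, adjusted p = 0.00424) and in each of 21 other settings in both. Pgk1 shares stretches of 75 bases with 4 pseudogenes, which together had 18.3 to 36.1 TPM, and adding them left the log2 fold change at -0.63 against Con.

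Eno3, the muscle enolase, at chr11:70657202-70662513, was at 2602, 2141 and 3829 TPM in Dis, 4825, 3769 and 4263 TPM in Con and 5193, 4949 and 5586 TPM in NC. Dis samples 1 and 2 were below all others and Dis sample 3 was just above Con sample 2. The decrease passed the test against NC (log2 fold change -0.92, SE 0.20, adjusted p = 0.0179) and not against Con (log2 fold change -0.62, SE 0.20, adjusted p = 0.0633), where it passed without Dis sample 3 (-0.85, adjusted p = 0.0161). Against NC it was lost with no filter and without NC sample 1 or 3. Pgam2, the muscle phosphoglycerate mutase, at chr11:5801640-5803733, was at 2157, 2071 and 1810.5 TPM in Dis, 2635, 2575 and 2498 TPM in Con and 2586, 2594 and 2921 TPM in NC. No Dis sample reached the others. It passed against NC (log2 fold change -0.43, SE 0.11, adjusted p = 0.0303) in 12 of 21 other settings, and was lost, among others, without Dis sample 3, Con sample 3 or any NC sample. Against Con it missed the threshold (log2 fold change -0.36, SE 0.11, adjusted p = 0.0536) and passed with median-ratio scaling (-0.59, adjusted p = 0.0319).

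Pkm, pyruvate kinase, was at 2103, 2333 and 2729 TPM in Dis, 2700.2, 2479 and 2389 TPM in Con and 3063, 2868 and 3239 TPM in NC, with log2 fold changes of -0.09 (adjusted p = 0.663) against Con and -0.36 (adjusted p = 0.0748) against NC. Dis overlapped Con and lay below all NC samples. The forms of enolase and mutase common outside muscle were far lower, Eno1 at 85.3 to 112 TPM and Pgam1 at 7.23 to 16.7 TPM, and neither passed the test. Of Pgam1 plus its 2 pseudogenes, 15.5% lay on the pseudogenes, and of Eno1 plus its 6 copies 11.1%. Eno3 made up 96.8, 95.8 and 97.7% of enolase transcripts in Dis, 98, 97.3 and 97.7% in Con samples and 98.3, 97.8 and 98.1% in NC samples, below NC without overlap.

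Gapdh, the dehydrogenase that opens the payoff phase and a common reference gene, which the study used to normalise its RT-qPCR, cannot be read from its own row. That row held 119.6, 191 and 905 TPM in Dis, 139, 145 and 195 TPM in Con and 177, 434 and 161 TPM in NC, so Dis sample 3 stood far above the other Dis samples and NC sample 2 far above the other NC samples. A further 121 annotated genes, of which 114 are pseudogenes, share at least 1 stretch of 75 bases with Gapdh transcripts. They summed to 9236, 8985 and 10905 TPM in Dis, 11581, 10776 and 11124 TPM in Con and 12065, 10908 and 12994 TPM in NC, and held 97.6% of the total of Gapdh and copies. The log2 fold change of Dis over Con was 0.80 (adjusted p = 0.427) for the Gapdh row and -0.17 (adjusted p = 0.45) for the total. Against NC it was 0.25 (adjusted p = 0.818) for the row and -0.28 (adjusted p = 0.208) for the total. None of these passed the test, and the sign of the difference turned when the copies were added. The totals averaged 10114 ± 1472 TPM in Dis, 11319.8 ± 399 TPM in Con and 12246 ± 907 TPM in NC (SD, n = 3 each).

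**Figure D3:**
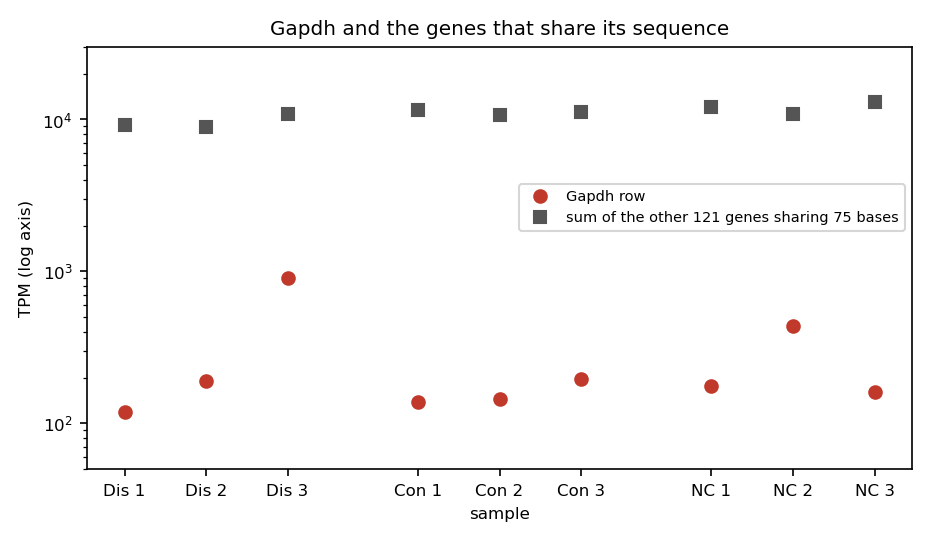
TPM of the Gapdh row (circles) and of the sum of the other 121 genes that share a stretch of 75 bases with it (squares) in each sample, on a log axis. The squares lie between 8985 and 12994 TPM in all 9 samples, while the circles range from 119.6 to 905 TPM.

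In the entry and investment phase, Tpi1, triose phosphate isomerase, was the gene of 9 that changed. It lies at chr6:124810586-124814296 on the minus strand and was at 1548, 1269 and 2057 TPM in Dis, 2152, 2105 and 2072 TPM in Con and 2624, 2496 and 2784 TPM in NC. All Dis samples were below all Con samples, and all Con samples below all NC samples. The decrease passed the test against NC (log2 fold change -0.72, SE 0.16, adjusted p = 0.0182). It was lost there with no filter, with only the 2 groups fitted and without NC sample 1 or NC sample 3. It did not pass against Con (log2 fold change -0.41, SE 0.16, adjusted p = 0.111), where it passed without Dis sample 3 (-0.59, adjusted p = 0.0206).

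Aldoa, the aldolase of muscle, was the most abundant of the 39 genes, at 22376, 21505 and 21102 TPM in Dis, 18837, 19245 and 17831 TPM in Con and 20939.9, 18399 and 22968 TPM in NC. Dis was above Con in every sample and overlapped NC, with log2 fold changes of 0.22 (adjusted p = 0.348) against Con and 0.07 (adjusted p = 0.789) against NC, and neither passed. Pfkm, the muscle phosphofructokinase that catalyses the committed step, was at 1732, 1705 and 2625 TPM in Dis, 2002, 1623 and 1795 TPM in Con and 2130.4, 2174 and 2247 TPM in NC. Its Dis samples overlapped both other groups, with Dis sample 3 the highest of all 9. The log2 fold changes were 0.14 (adjusted p = 0.605) against Con and -0.14 (adjusted p = 0.58) against NC.

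Gpi1, glucose phosphate isomerase, was at 642, 655 and 882 TPM in Dis, 554, 562 and 562 TPM in Con and 601, 606 and 666 TPM in NC, higher in every Dis sample than in any Con sample and short of the threshold (log2 fold change 0.36, SE 0.13, adjusted p = 0.0757). Hk2, the insulin-responsive hexokinase that traps glucose in the fibre, was at 131, 177 and 159 TPM in Dis, 152, 139.8 and 137 TPM in Con and 117, 129.8 and 113 TPM in NC. All Dis samples were above all NC samples, at a log2 fold change of 0.37 (adjusted p = 0.0591), which did not pass, and without Dis sample 1 it did (0.48, adjusted p = 0.0162). Hk1 lay between 3.32 and 7.44 TPM, the non-muscle phosphofructokinases Pfkl and Pfkp between 4.04 and 7.76 TPM and between 2.36 and 4.67 TPM, and Aldoc between 0.132 and 0.714 TPM. None of these 4 passed the test, Dis sample 2 was the highest of the 9 in each of them, and every Dis sample had more Aldoc than any other sample. Hk2 made up 96.0 to 97.5% of hexokinase transcripts over the 9 samples and Pfkm 99.3 to 99.7% of phosphofructokinase transcripts.

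The Pfkp locus overlaps Pitrm1, which encodes a mitochondrial peptidase, on the other strand. Pitrm1 had 25.9, 26.9 and 26.8 TPM in Dis, 20.0, 20.4 and 20.7 TPM in Con and 19.2, 23.3 and 19.5 TPM in NC, several times the level of Pfkp. The 2 shared a stretch of 75 bases and were therefore added together in the setting that sums copies, where the log2 fold change against Con was 0.32 (adjusted p = 0.0432) against -0.05 for Pfkp alone. The sum was 87.2% Pitrm1.

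Of the 5 glycogen breakdown genes, 1 rose in Dis relative to Con and 4 did not pass, and none passed relative to NC. Phka1, the muscle regulatory subunit of phosphorylase kinase, lies at chrX:102513975-102644246 on the minus strand. Its level was 234, 197 and 266 TPM in Dis, 172, 186 and 162 TPM in Con and 210.1, 212 and 229 TPM in NC. Dis was above Con in every sample and overlapped NC, and all Con samples lay below all NC samples. The increase passed against Con (log2 fold change 0.41, SE 0.12, adjusted p = 0.0393) and not against NC (log2 fold change 0.09, SE 0.12, adjusted p = 0.612). Con over NC was -0.32 (adjusted p = 0.638). The Con difference was past the threshold in 6 of 21 other settings, and was lost, among others, with median-ratio scaling, quantile scaling and rescaling without mitochondrial genes, and without any of Dis samples 1 and 3, the Con samples and the NC samples. It ranged from 0.18 to 0.53 on the log2 scale over the settings.

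Phkb, another regulatory subunit of phosphorylase kinase, was at 215, 176 and 198 TPM in Dis, 148, 174 and 144 TPM in Con and 164, 167 and 175 TPM in NC. All Dis samples were above all Con samples, and the difference missed the threshold (log2 fold change 0.33, SE 0.10, adjusted p = 0.055) and passed without Dis sample 2 (0.41, adjusted p = 0.0282). Phkg1, the catalytic subunit of muscle, was at 507, 385 and 452 TPM in Dis, 381, 376 and 383 TPM in Con and 482, 409.5 and 518 TPM in NC. Dis was above Con in every sample and overlapped NC, with a log2 fold change of 0.23 (adjusted p = 0.221) against Con. Phkg1 overlaps Chchd2 on the same strand, which averaged 422 TPM, so their reads may not be fully separable. Pygm, muscle glycogen phosphorylase, was at 5228, 4704 and 5337 TPM in Dis, 4313, 4580.3 and 3784 TPM in Con and 4968, 4870.4 and 5299 TPM in NC, with a log2 fold change of 0.27 (adjusted p = 0.154) against Con and 0.01 (adjusted p = 0.957) against NC. Pygb, the brain form, lay between 2.21 and 5.14 TPM and did not pass.

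Among the 8 glycogen synthesis genes, 1 passed the test. Ppp1r3a, the muscle subunit that directs protein phosphatase to glycogen, where it activates glycogen synthase, lies at chr6:14713977-14755274 on the minus strand. Its level was 110.4, 74.3 and 124 TPM in Dis, 58.4, 59.8 and 66.6 TPM in Con and 86.2, 67.4 and 76.6 TPM in NC. Every Dis sample was above every Con sample, with Dis sample 2 within the NC range. The increase passed against Con (log2 fold change 0.71, SE 0.18, adjusted p = 0.0281), where the Dis mean was 167% of the Con mean, and not against NC (log2 fold change 0.40, SE 0.18, adjusted p = 0.148). Against Con it was past the threshold in 11 of 21 other settings, and was lost, among others, under median-ratio and quantile scaling, without Dis sample 1 or 3 and without any Con sample. Without Dis sample 2 it was 0.92 (adjusted p = 0.00466) against Con and 0.61 (adjusted p = 0.0134) against NC.

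Gyg, glycogenin, the protein primer of the glycogen particle, was at 345, 454 and 468 TPM in Dis, 294, 340.4 and 336 TPM in Con and 339, 324 and 342 TPM in NC. Every Dis sample exceeded every Con sample, short of the threshold (log2 fold change 0.37, SE 0.12, adjusted p = 0.0663), and without Dis sample 1 it passed (0.51, adjusted p = 0.0132). Gys1, muscle glycogen synthase, was at 169, 189 and 282 TPM in Dis, 248, 203 and 185 TPM in Con and 216, 261 and 209 TPM in NC, with Dis spanning both other groups. Its log2 fold changes were -0.02 (adjusted p = 0.965) against Con and -0.13 (adjusted p = 0.658) against NC. Pgm1, the phosphoglucomutase that links glucose phosphates to glycogen, was at 1147, 959 and 1016 TPM in Dis, 869, 995 and 842 TPM in Con and 995, 962 and 1102 TPM in NC, and Ugp2, which makes the activated glucose, was at 284, 567 and 377 TPM in Dis, 373, 336 and 364 TPM in Con and 293, 308 and 306 TPM in NC. Ppp1r3c, another glycogen-targeting subunit, was at 238, 362 and 299 TPM in Dis, 239.6, 426 and 298 TPM in Con and 239, 247 and 265 TPM in NC. The groups Dis and Con overlapped in all 3, and none passed. Gbe1, the branching enzyme, lay between 22.0 and 36.5 TPM and Pgm2 between 1.25 and 3.01 TPM, and neither passed.

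Of the enzymes that set fructose bisphosphate, none of 4 passed. Pfkfb3, an inducible kinase whose product activates phosphofructokinase, was at 543, 225 and 443 TPM in Dis, 241, 195 and 165 TPM in Con and 398, 268 and 315 TPM in NC. Dis samples 1 and 3 were above all others, while Dis sample 2 lay within the Con range. The fold change was the largest of the 39 upward (log2 fold change 0.93, SE 0.30, adjusted p = 0.0595) and was 1.31 (adjusted p = 0.00623) without Dis sample 2. Con over NC was -0.70 (adjusted p = 0.78). Pfkfb1, the form of liver and muscle, was at 33.6, 16.7 and 36.8 TPM in Dis, 54.5, 37.8 and 44.4 TPM in Con and 47.6, 46.4 and 53.9 TPM in NC. All Dis samples were below all others, and neither difference passed, at -0.71 (adjusted p = 0.0937) against Con and -0.83 (adjusted p = 0.0592) against NC. Pfkfb4 was at 34.9, 80.8 and 45.4 TPM in Dis, 30.8, 44.5 and 31.0 TPM in Con and 27.3, 30.3 and 35.8 TPM in NC, highest in Dis sample 2. Fbp2, the muscle fructose bisphosphatase of the reverse reaction, was at 25.5, 60.0 and 41.5 TPM in Dis, 32.6, 36.9 and 41.9 TPM in Con and 53.9, 53.4 and 58.0 TPM in NC, with Dis sample 2 the highest and Dis sample 1 the lowest of the 9.

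Gpd1 and Gpd2, the cytosolic and mitochondrial enzymes of the glycerol phosphate shuttle, which carries electrons from glycolysis into mitochondria, did not pass the test. Gpd1 was at 452, 348 and 417 TPM in Dis, 416, 433 and 385 TPM in Con and 476, 488 and 524 TPM in NC, and Gpd2 at 93.4, 67.4 and 81.0 TPM in Dis, 63.7, 73.2 and 66.8 TPM in Con and 77.2, 78.5 and 92.6 TPM in NC. Gpd1 made up 82.9, 83.8 and 83.7% of the pair in Dis, 86.7, 85.5 and 85.2% in Con samples and 86, 86.2 and 85% in NC samples. Every Dis sample was below every other sample in this share, by 2.35 points against Con and 2.26 points against NC in the means (exact permutation p = 0.1 each, the smallest 3 against 3 samples allow, 0.333 and 0.25 after adjustment over 10 shares).

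Summed over steps on the TPM scale, the directions parted. Without Gapdh and its copies, the other 6 payoff genes held 0.742, 0.704 and 0.891% of all TPM in Dis, 1.1, 0.959 and 0.989% in Con samples and 1.16, 1.13 and 1.26% in NC samples, with all Dis samples below all others. With the Gapdh row added, Dis sample 3 (0.982%) lay above the lowest Con sample (0.974%). The 5 glycogen breakdown genes held 0.619, 0.547 and 0.626% in Dis, 0.502, 0.532 and 0.448% in Con samples and 0.583, 0.566 and 0.622% in NC samples. Here Dis was above Con in every sample and overlapped NC. The 9 entry and investment genes, dominated by Aldoa, held 2.64, 2.53 and 2.68% in Dis, 2.37, 2.37 and 2.24% in Con samples and 2.64, 2.38 and 2.88% in NC samples, again with Dis above Con and overlapping NC. These sums were not rescaled for the higher size factors of Dis, so both separations from Con hold for TPM only. With median-ratio scaling the log2 fold change of Aldoa over Con turned to -0.01. That of Pygm over Con was 0.04 at its lowest over the settings. The median log2 fold changes of Dis over Con were 0.11 for entry and investment, -0.17 for payoff with the Gapdh row, -0.35 for lactate, 0.27 for glycogen breakdown, 0.08 for glycogen synthesis and 0.32 for fructose phosphate control, beside 0.20 for all tested genes. Against NC they were 0.14, -0.36, -0.53, 0.09, 0.28 and -0.11 in that order, beside 0.21.

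**Figure D4:**
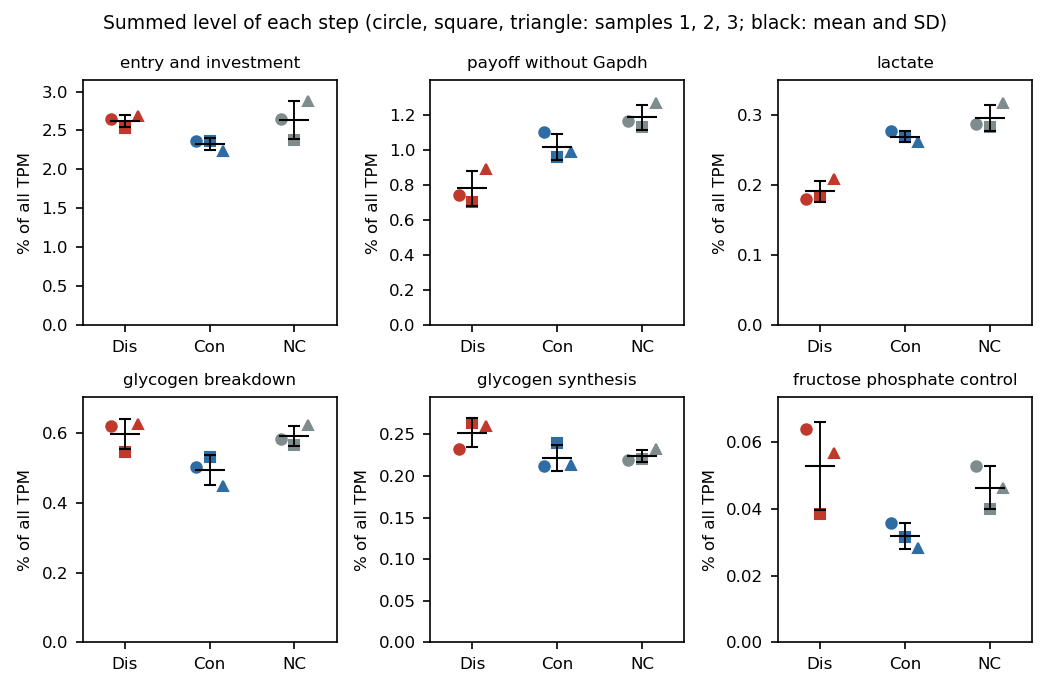
Summed level of the genes of each step, Gapdh left out of the payoff genes, as a percentage of all TPM in each sample, Dis in red, Con in blue and NC in grey, with the mean and SD of 3 samples in black and every axis starting at 0. The lactate genes lie at 0.181 to 0.209% in Dis, below all Con and NC samples, and the glycogen breakdown genes at 0.547 to 0.626% in Dis, above all Con samples.

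The free leg of bandaged mice was set against naive muscle to see how far the 2 controls were alike. With limma, 0 of the 39 genes passed for Con with NC in either direction, where 0% of all tested genes were higher and 0.0062% (1 gene, Gm7327) lower. At an unadjusted p below 0.05 stood 5 of the 39 and 1008 of all 16140. The levels were nevertheless ordered in many of these genes. In 14 of 39 (35.9%) every Con sample was below every NC sample, where 8.11% of all tested genes had this order, and in 4 of 39 (10.3%) every Con sample was above, where 9.54% of all had. The count was made after the values were seen. It stayed at 14 and 4 with median-ratio scaling, a weak check because the size factors of Con and NC were close. Con was below NC in Gpi1, Pfkm, Tpi1, Eno3, Pkm, Slc16a3, Pygm, Phka1, Phkg1, Ppp1r3a, Pfkfb3, Fbp2, Gpd1 and Gpd2, and above it in Hk2, Pfkl, Pgam1 and Ugp2. The summed macrophage markers were also higher in every Con sample (39.1 to 53.6 TPM) than in any NC sample (20.4 to 26.1 TPM), with 0 of the 5 past the threshold, and their part in this order was not tested. The median log2 fold change of Con over NC was -0.13 for the 39 genes and 0.01 for all tested genes.

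Of 64 other genes of glucose and glycogen handling, 53 were tested, of which 8 were higher and 4 lower in Dis than in Con at the threshold and 41 did not pass. Against NC, 5 were higher and 5 lower. Of all tested genes, 14.1% were higher and 3.08% lower in Dis than in Con, and 13.6% higher and 2.99% lower than in NC. Around glycogen, Stbd1, which tethers glycogen to membranes for lysosomal breakdown, was at 89.2, 93.1 and 64.3 TPM in Dis, 33.7, 40.9 and 45.2 TPM in Con and 30.4, 34.0 and 35.7 TPM in NC (log2 fold change 1.02, SE 0.16, adjusted p = 0.00617 against Con). All Dis samples were above all others, and it passed in each of 21 other settings in both comparisons. Gaa, the lysosomal glucosidase that digests glycogen, was at 210.2, 294 and 183 TPM in Dis, 132, 147 and 119.7 TPM in Con and 125, 124 and 138 TPM in NC (log2 fold change 0.76, SE 0.16, adjusted p = 0.0167 against Con), also with Dis above all others. Phka2, the liver regulatory subunit of phosphorylase kinase, was at 5.87, 5.22 and 7.21 TPM in Dis, 3.37, 2.63 and 3.49 TPM in Con and 3.62, 2.98 and 3.33 TPM in NC (log2 fold change 0.85, SE 0.16, adjusted p = 0.0111 against Con), so that both A subunits of this kinase were higher in Dis than in Con. Nhlrc1, a ubiquitin ligase of glycogen quality control, passed as well (0.40, adjusted p = 0.0476 against Con), and was lost in 16 of 21 other settings.

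At the entry of pyruvate into mitochondria, Mpc2, a subunit of the pyruvate carrier (-0.47, adjusted p = 0.0279), and Pdhb and Pdha1, subunits of pyruvate dehydrogenase (-0.43, adjusted p = 0.0162, and -0.43, adjusted p = 0.0432), fell relative to Con. All 3 fell relative to NC too. Pdhb was at 195, 176 and 211 TPM in Dis, 275, 247 and 261 TPM in Con and 249.8, 267 and 249 TPM in NC, with no Dis sample reaching the others. Of the kinases that switch off pyruvate dehydrogenase, Pdk1 fell (-0.42, adjusted p = 0.0333) and Pdk2 rose (0.37, adjusted p = 0.0342) relative to Con. Pcx, pyruvate carboxylase (0.53, adjusted p = 0.0463), and Slc2a3, a glucose carrier (0.93, adjusted p = 0.033), rose relative to Con. With median-ratio scaling Pdk2, Pcx, Slc2a3, Phka2, Gaa and Nhlrc1 no longer passed, and Stbd1, Mpc2, Pdhb, Pdha1 and Pdk1 did. Over all 21 other settings, Pdhb was past the threshold against Con in 18, Mpc2 in 16, Pdk1 in 11, Slc2a3 in 10, Pdk2 in 7, and Pcx and Pdha1 in 6 each.

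**Figure D5:**
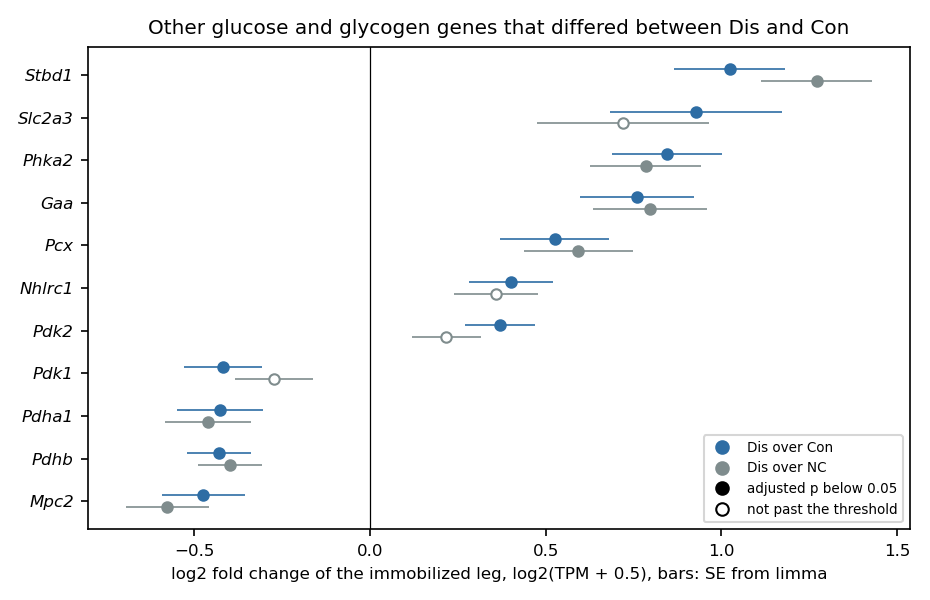
Log2 fold changes of 11 of the 12 other genes of glucose and glycogen handling that passed the test of Dis with Con, Dis over Con in blue and Dis over NC in grey, with the standard error of limma as bars. Filled points passed an adjusted p of 0.05. Stbd1 lies at 1.02 and 1.27 and Mpc2 at -0.47 and -0.58.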

How the data were processed

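RNA of 9 mouse gastrocnemius samples was sequenced in 3 groups of 3. The deposited values are TPM, 1 table per sample. According to the labels and methods, the authors demultiplexed reads with bcl2fastq 2.20, trimmed them with Trimmomatic 0.36, aligned them with HISAT2 (version and genome build not given in the sources used here), quantified genes with StringTie 2.1.3 and tested them with DEseq 1.39.0. All 39 genes lay at GENCODE mouse release 21 coordinates (GRCm38).

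The 39 genes, the other lists, the motifs and the genes named were chosen with earlier results of these data known. Every one of the 39 was to be named, with values per sample for those past the threshold and the abundant ones, and of the other pathway genes those past the threshold for Dis with Con, at most 8 each way. The counts include 1 of these genes that is not reported here. Entries of 0.0001 TPM, which stand for no expression, were set to 0. A gene was tested when 3 or more samples had 0.3 TPM or more (16140 genes). TPM carries no depth, so no counting error was computed, and no count test was run. The 3 groups were fitted together to log2(TPM + 0.5) with limma 3.58.1 in R 4.3.3, with a mean trend and Benjamini-Hochberg adjustment over all tested genes, at an adjusted p below 0.05. Every adjusted p in the text comes from this limma fit unless an exact permutation test is named. The pseudocount understates changes of genes below about 1 TPM. Isoform shares were compared with exact two-sided permutation tests. The model was tested on simulated data.

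Near-identical copies were found as annotated genes whose transcripts share at least 1 stretch of 75 bases with those of a gene. Alternatives were pseudocounts of 0.1 and 1, no filter, a filter of 1 TPM, median-ratio and quantile scaling, TPM rescaled without mitochondrial genes, array weights, a fit without the mean trend, fits restricted to the 2 groups in question, a replicate block, summed copies, and omission of each sample in turn. Computing outside R used Python 3.11.15 with pandas 2.3.3, numpy 2.4.6 and scipy 1.17.1, and plots drawn with matplotlib 3.10.9. Promoter sequences are those of RefSeq.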

Additional observations from a re-analysis of the deposited data

How the results depend on the processing

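Fold changes and counts of genes past the threshold were recomputed under 21 other settings, changed 1 at a time (19 or 20 for Aldoc, which did not pass the filter in the rest), and isoform shares with each of the 6 samples compared left out in turn. Sums over steps and markers were not recomputed under these settings. Of the 5 genes past the threshold for Dis with Con, 5 kept their sign and 2 (Ldhb and Pgk1) stayed past it in all 21. Of the 6 for Dis with NC, 6 kept their sign and 3 (Ldhb, Pgk1 and Ldha) stayed past it. Of the genes not past the threshold, 9 of 34 passed in at least 1 setting for Dis with Con and 12 of 33 for Dis with NC, and their fold changes, which carry no called direction, changed sign in at least 1 setting for 19 and 18. The only reversal of a value that then passed was Pfkp for Dis with Con, 0.32 when summed with overlapping Pitrm1.

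For Dis with Con, 2 of the 39 genes were higher, and 0 were with no filter, with median-ratio scaling, with quantile scaling, with mitochondrial genes left out and with only the 2 groups fitted, 1 with no mean trend and 4 with array weights. The 3 lower ones became 5 with median-ratio scaling. Leaving out single samples gave 0 to 4 higher and 2 to 6 lower. For Dis with NC, 0 higher became 1 with summed copies, which was Pfkp summed with overlapping Pitrm1. The 6 lower became 3 with no filter. With single samples left out, the ranges were 0 to 4 higher and 3 to 8 lower. Con with NC gave 0 in each setting. The counts of 14 and 4 genes without overlap were also found with median-ratio scaling, an alternative chosen after seeing the data. Size factors of Con and NC were close, so this alternative is a weak check.

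Over all tested genes, the 2273 higher for Dis with Con became 430 with median-ratio scaling, 549 with quantile scaling, 1360 without mitochondrial genes and 660 with 2 groups, and ranged from 515 to 2444 with single samples left out. The 497 lower became 750 with median-ratio scaling and 217 with 2 groups, with a range of 186 to 575. For Dis with NC the 2194 higher became 553, 630, 1381 and 1017 in the same 4 settings, with a range of 664 to 2612, and the 482 lower became 897 with median-ratio scaling, 777 with quantile scaling and 250 with 2 groups, with a range of 182 to 549. Con with NC, at 0 higher and 1 lower, gave 1 higher with no filter and with a replicate block, 31 higher and 12 lower with array weights, 5 higher and 2 lower with 2 groups, and 0 to 6 higher and 1 to 2 lower with single samples left out. The cause of these shifts was not tested.

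Dis and Con samples of the same number did not deviate together. Their correlations were -0.01, -0.02 and 0.02 for samples 1, 2 and 3, so the numbers were not taken to pair them. Same-number pairs with NC, which are of different mice, ranged from -0.10 to 0.07. With a replicate block, 2 of the 39 genes were higher (Ppp1r3a and Pfkfb3) and 2 lower (Ldhb and Pgk1) for Dis with Con, and 0 higher and 6 lower for Dis with NC, of which Pfkfb1 was new and Pgam2 was lost. TPM keeps no depth, so what depth limits cannot be stated.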
